A study of Mus musculus with 6 samples.

Results

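Transcripts of 7 ubiquitin ligases were followed in mouse spleen B cells after engagement of the B cell antigen receptor (BCR). They are grouped here as ligases that lower the amount or the signalling of cell surface receptors. The ligases are Cbl, Cblb, Itch, Nedd4, Nedd4l, Marchf1 and Peli1, taken by gene symbol, each read by its brightest probe over the 6 arrays. They are 7 of 19057 genes that have a probe with a single symbol. Of the 7, 6 were bright enough to be tested, among 11855 genes tested in all, and Nedd4 was not. B lymphocytes were purified from spleens of C57BL/6 mice, an inbred strain, 8 weeks old. The untreated group held 3 samples and the anti-IgM group another 3, exposed for 3 h to goat F(ab')2 antibody against mouse IgM (2.5 µg/ml). IL-4 (5 ng/ml) and CD40L (200 ng/ml) also appear in the protocols, which leave unsaid whether 1 group or both had them. If the anti-IgM group alone had them, their effects and those of the antibody cannot be told apart. Whether replicates are separate mice is not stated either, so p-values measure only the spread between these samples.

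Ubiquitin ligases attach the small protein ubiquitin to chosen targets. On a receptor or a kinase bound to it, the tag can send the protein to lysosomes or the proteasome, or change which partners it binds. CBL and CBL-B are RING ligases that bind phosphorylated tyrosine kinases and adaptors, and CBL-B is known as a brake on antigen receptor signals in lymphocytes. ITCH, NEDD4 and NEDD4L belong to the HECT class, carry WW domains that bind proline-rich motifs, and are switched on by the membrane adaptors NDFIP1 and NDFIP2. MARCHF1 sits in membranes and takes MHC class II and CD86 off the surface of antigen presenting cells. PELI1 is a Pellino ligase known from Toll-like receptor signalling.

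An Illumina bead array of 45281 probes was used for each sample. The median intensity was 72.8 on every array, a log2 value of 6.19, and served as the line between bright and dim probes. Over the probes tested, arrays correlated at Pearson's r of 0.981 to 0.992 within groups and of 0.898 to 0.912 across them. The first principal component of the arrays held 81.2% of the variance and the next held 11.0%. Xist, a transcript of female cells, read 52.6 in replicate 1 of each group, while the other 4 samples ranged from 791 to 2030. Eif2s3y, a gene of the Y chromosome, read 1040 in untreated and 516 in anti-IgM replicate 1, and 48.6 to 56.4 in the other 4. In both groups replicate 1 thus read as male and the other samples as female, so replicate 1 came from other mice. The B cell label was checked against 4 measured B cell markers, Ms4a1, Cd79b, Cd22 and Blk. All 4 were above the array median in every sample, and all 4 were lower with anti-IgM, with a median log2 change of −2.15. The falls were unequal, at −2.95 for Cd22, −2.76 for Cd79b, −1.54 for Ms4a1 and −0.67 for Blk. Their summed intensity was 36838 to 41220 in untreated and 9842 to 11148 in anti-IgM samples. In whole samples such as these, fewer cells of a type and less marker RNA per cell cannot be told apart.

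The comparison asks which of these ligase transcripts differed between untreated B cells and those exposed to anti-IgM. Marchf1, Nedd4l, Cblb, Peli1 and Itch fell, and no ligase rose. Marchf1 was 22.6-fold lower, Nedd4l 2.46-fold, Cblb 2.20-fold, Peli1 1.79-fold and Itch 1.55-fold. Cbl did not pass the test, and both probes of Nedd4 were dim. Thus 5 of the 6 ligases tested were lower at an adjusted p under 0.05 in limma, where 47.1% of all genes tested were called, 23.9% lower and 23.2% higher. The 6 ligases had a median log2 change of −0.99, beside 0.02 over all genes tested. The 7 were chosen with earlier results of these data known, so this count describes them and is no independent evidence of a direction.

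**Figure D1:**
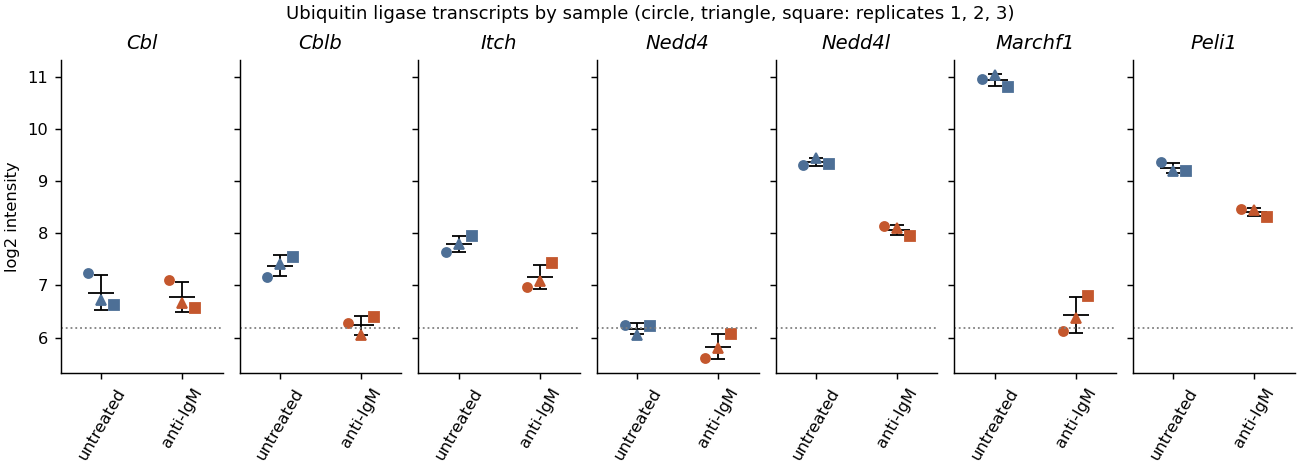
Log2 intensity of each of the 7 ligases in every sample (untreated in blue, anti-IgM in orange, symbols for replicates 1 to 3). Black marks give the mean and SD of 3 samples, and the dotted line is the array median of 6.19. The groups do not overlap for Cblb, Itch, Nedd4l, Marchf1 and Peli1, and Nedd4 lies near or under the dotted line in all 6 samples.

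Marchf1 encodes the membrane RING-CH ligase that removes MHC class II and CD86 from the surface. Its intensity was 1987, 2089 and 1794 in untreated replicates 1 to 3 and 69.4, 82.8 and 112 in anti-IgM replicates 1 to 3. Every untreated sample was thus far above every anti-IgM sample, and anti-IgM replicate 1 was under the array median. The mean log2 intensity was 10.93 ± 0.11 (SD, n = 3) in untreated and 6.43 ± 0.35 (SD, n = 3) in anti-IgM samples. The log2 change, anti-IgM minus untreated, was −4.50 ± 0.18 (SE; adjusted p = 3.04e-08, limma). Of the 11855 genes tested, 4 had a change this low, Marchf1 included. Since the anti-IgM values lie at the dim end of the arrays, where intensities are compressed, the fall can be understated. With the lowest intensity of each array subtracted, it was −5.25. Macrophages and dendritic cells also make MARCHF1. Of 4 macrophage markers Adgre1 fell (−2.10 ± 0.22) and the other 3 did not pass, the 4 summing to 1287 to 5555 in untreated and 1121 to 2292 in anti-IgM samples. Of 4 dendritic cell markers, Flt3 and Itgax were too dim to test, Zbtb46 rose (1.76 ± 0.14) and Xcr1, at least 1.16-fold lower, fell. The summed intensity of Zbtb46 and Xcr1 was 158 to 165 and then 315 to 320. The part of these cells in the fall of Marchf1 was not tested.

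Marchf1 had the lowest change among the ligases, and part of the sequence before its first annotated start is therefore shown. The stretch runs upstream of the annotated gene in RefSeq on GRCm38.p6, chr8:65617790-65618008, plus strand, 219 bases. Capitals mark a match to the core letters bound by NFAT factors (GGAAAA, read on either strand). The match begins 152 bases before the first start. The stretch shown ends short of that start, so the distance is not counted from its last base.

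Marchf1 upstream: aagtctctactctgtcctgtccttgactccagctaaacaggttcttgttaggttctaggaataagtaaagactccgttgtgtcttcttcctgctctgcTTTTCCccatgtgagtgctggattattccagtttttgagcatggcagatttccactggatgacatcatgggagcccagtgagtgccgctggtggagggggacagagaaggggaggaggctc

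RefSeq promoter windows, 250 bases before to 50 after a start, were given for 5 of the 7 ligases, 8 windows in all, with 3 for Marchf1. Letters searched on both strands were TGANTCA (AP-1), GTAAACA (FOXO), GGAAAA (NFAT), CACGTG (MYC), GAGGAAG (PU.1) and GCGTGGGCG (EGR). Of 32851 windows of all genes, 7.81% held the AP-1 letters, 3.65% FOXO, 23.4% NFAT, 7.15% MYC, 13.6% PU.1 and 0.612% EGR. Beside the NFAT match, the other starts of Marchf1 and the start of Cblb held 1 match each, shown with 10 bases on either side and the match in capitals. A match is a description of letters and not a measured site, since binding was not assayed.

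Marchf1 second start, FOXO letters, chr8:65618449-65618475, plus strand: aagtcagcgcTGTTTACacccgcagcc
Marchf1 last start, PU.1 letters, chr8:66386186-66386212, plus strand: gtggaatcatCTTCCTCtctcacaagt
Cblb, PU.1 letters, chr16:52031392-52031418, plus strand: tggagtgggcCTTCCTCtggggccatt

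The window of Peli1, another ligase that fell, held none of the 6 sets of letters, nor did that of Cbl. Of the windows of Nedd4, 1 held the AP-1 letters.

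Cblb encodes CBL-B, the RING ligase known to restrain antigen receptor signals. Its intensity was 142, 171 and 187 in untreated and 77.6, 65.8 and 84.0 in anti-IgM replicates 1 to 3. The lowest untreated value was well above the highest anti-IgM value, and anti-IgM replicate 2 was under the array median. The log2 change was −1.14 ± 0.16 (adjusted p = 0.000175, limma). Within the numbered pairs it was −0.88, −1.38 and −1.16.

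Cbl, the paralogue of Cblb, did not pass the test. Its intensity was 152, 105 and 99.1 in untreated and 138, 102 and 95.3 in anti-IgM samples. Replicate 1 was the highest of both groups, and the groups overlapped almost wholly. The log2 change was −0.08 ± 0.21 (adjusted p = 0.80, limma), with a 95% interval of −0.54 to 0.38 in the fit without the pairing. By that fit a moderate change in either direction cannot be told from none. The numbered pairs gave −0.14, −0.04 and −0.06, and without both replicate 1 arrays the change was −0.05. Its sign turned without untreated replicate 1 alone (0.11) or without anti-IgM replicate 3 alone (0.03). The change of Cbl minus that of Cblb, taken within each array, was 1.06 and was positive in each numbered pair (0.74, 1.33 and 1.10). An exact two-sided permutation test of 3 against 3 samples gave p = 0.10, the smallest possible when samples are not paired, and 0.10 after adjustment over the 4 pairs of ligases compared. Exchanging labels only within numbered pairs, a test added after the data were seen, gave an exact p of 0.25, again the smallest possible, so neither test could reach 0.05.

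Nedd4l encodes NEDD4L, a HECT ligase best known for taking the epithelial sodium channel off the membrane. Its intensity was 636, 695 and 645 in untreated and 282, 275 and 247 in anti-IgM replicates 1 to 3. The values were tight within each group and far apart between groups, with means of 9.36 ± 0.07 and 8.06 ± 0.10 (log2, SD, n = 3). The log2 change was −1.30 ± 0.13 (adjusted p = 1.01e-05, limma).

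Itch encodes the HECT ligase whose loss gives the itchy mouse its inflammatory disease. Its intensity was 198, 222 and 248 in untreated and 125, 137 and 172 in anti-IgM replicates 1 to 3. Replicate 3 was the highest of both groups, and the groups still did not overlap. The log2 change was −0.63 ± 0.17 (adjusted p = 0.011, limma), the smallest among the ligases that fell. Without untreated replicate 3 it missed the threshold (−0.55; adjusted p = 0.050, limma). A minimum log2 change of 0.5 was also not passed (adjusted p = 0.68, limma treat). Within the numbered pairs the change was −0.66, −0.70 and −0.53.

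Nedd4, which gives the NEDD4 group of HECT ligases its name, was at the dim end of the arrays. Its brighter probe read 75.4, 66.5 and 75.0 in untreated and 48.5, 56.0 and 67.3 in anti-IgM samples. It was above the array median in 2 of 3 untreated and in 0 of 3 anti-IgM samples, short of the 3 arrays needed for a test. With no filter on dim probes its log2 change was −0.35 ± 0.13 (adjusted p = 0.074 over 19057 genes, limma). The change of Itch minus that of Nedd4l was 0.67, positive in each numbered pair (0.51, 0.64 and 0.86; exact permutation p = 0.10). For Nedd4 minus Nedd4l it was 0.95 and for Nedd4 minus Itch 0.28, values that rest on dim readings of Nedd4 (exact permutation p = 0.10 for each).

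Peli1 encodes the Pellino ligase that links ubiquitin to IRAK kinases downstream of Toll-like receptors. Its intensity was 658, 583 and 587 in untreated and 352, 348 and 318 in anti-IgM replicates 1 to 3. No anti-IgM sample came near the untreated ones. The log2 change was −0.84 ± 0.12 (adjusted p = 0.000205, limma), and −0.90, −0.74 and −0.88 within the numbered pairs.

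In size, the falls were ordered Marchf1, Nedd4l, Cblb, Peli1 and Itch. The 95% interval of Marchf1 (−4.89 to −4.11) lay apart from those of the other ligases. Those of Nedd4l (−1.58 to −1.02), Cblb (−1.50 to −0.77), Peli1 (−1.12 to −0.57) and Itch (−1.01 to −0.25) each overlapped the next in order. Marchf1, Nedd4l and Cblb were called and at least 2-fold lower, as were 10.5% of all genes tested. The groups did not overlap in the 5 ligases that fell, where 26.9% of genes tested were lower without overlap and 54.8% were without overlap in either direction. Without both replicate 1 arrays the 5 falls were −4.33 for Marchf1, −1.36 for Nedd4l, −1.27 for Cblb, −0.81 for Peli1 and −0.61 for Itch, and each passed the test in limma.

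**Figure D2:**
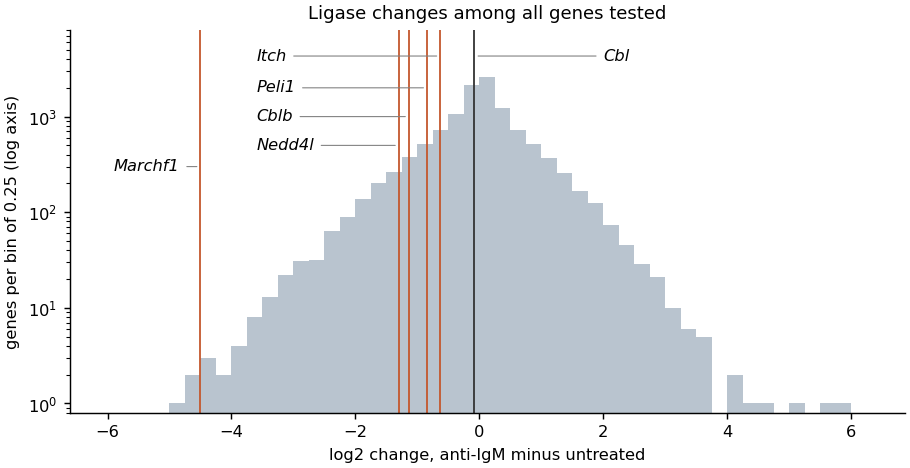
Histogram of the log2 change of all 11855 genes tested (anti-IgM minus untreated, bins of 0.25, log count axis), with vertical lines at the ligases that fell (orange) and at Cbl (black). Marchf1 stands at −4.50 in the sparse lower tail, while Nedd4l, Cblb, Peli1 and Itch lie between −1.30 and −0.63, where many other genes lie.

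Several ligases have more than 1 probe on the array, 16 in all, of which 8 passed the filter. Those of Itch gave −0.63 ± 0.18 and −0.68 ± 0.16, and both passed the test over 23505 probes (adjusted p = 0.015 and 0.0072, limma). Of the 8 probes tested 7 were called lower, where 42.2% of all probes tested were called and 21.0% were called lower. Those of Peli1 gave −0.84 ± 0.13 and −0.67 ± 0.17 (adjusted p = 0.000355 and 0.0092), and its other probe, matched to another transcript, read between 61.4 and 72.9. For Marchf1, Nedd4l and Cblb the result rests on a single probe. The second probe of Marchf1 carries the same accession, NM_175188, as the first, and read between 54.5 and 69.1 in all 6 samples. The remaining probes of Nedd4l read between 49.7 and 75.8. A second probe of Cblb, matched to the same transcript as the tested one, read between 48.8 and 61.0 in all 6 samples. Its last probe, matched to another transcript, read between 49.9 and 82.7. These dim probes gave no measurement of a change.

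**Figure D3:**
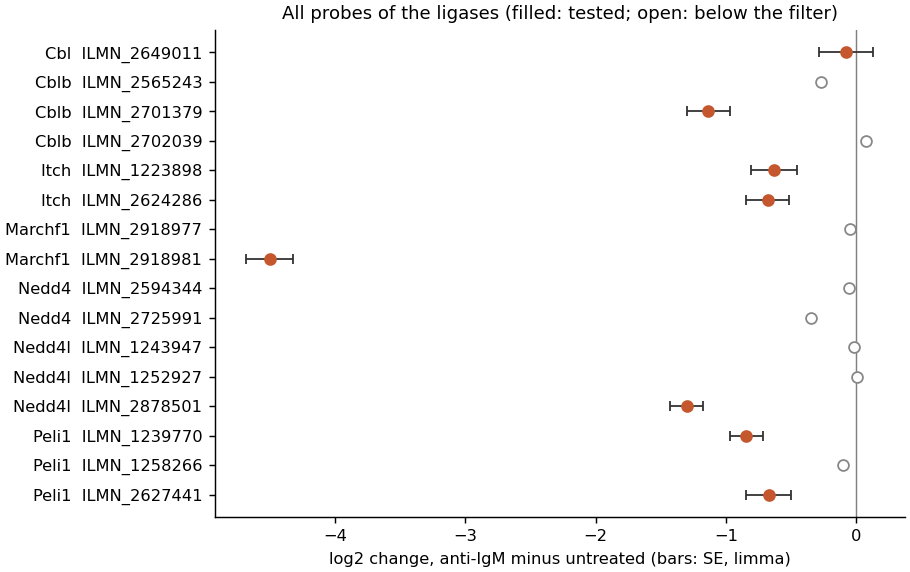
Log2 change (anti-IgM minus untreated) of each of the 16 probes of the ligases, filled where the probe was tested (bars give the SE from limma) and open where it was too dim. The tested probes of Itch lie at −0.63 and −0.68 and those of Peli1 at −0.84 and −0.67, while the dim probes lie between −0.35 and 0.07.

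The genes with the pattern over the 6 arrays closest to that of Marchf1 were Ralgps2, Rnase6 and Il16. The measure was the Euclidean distance between log2 profiles centred on their means, which was 0.43, 0.47 and 0.50. Their log2 changes were −4.30 ± 0.12, −4.31 ± 0.13 and −4.23 ± 0.14. The same measure for Cbl, the ligase with the highest change, gave Cnot3, Fam83a and Zfp638, none of which passed the test.

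Among family relatives of the ligases, 14 of 20 were tested, 2 fell and 1 rose, with a median log2 change of 0.04. Over all genes tested 47.1% were called, 23.9% lower and 23.2% higher, which is the background for this and each list that follows. Wwp2, a HECT ligase of the NEDD4 group, changed by −0.71 ± 0.16 (adjusted p = 0.0038, limma). Its near relative Wwp1 did not pass (0.10 ± 0.16). Marchf2, a membrane ligase of the endosome, changed by −0.57 ± 0.12 (adjusted p = 0.0020), and Marchf5, a ligase of the outer mitochondrial membrane, rose by 0.57 ± 0.15 (adjusted p = 0.0091). Marchf8, the closest relative of Marchf1, was under the array median in all 6 samples. Neither Peli2 (−0.16) nor Peli3 (−0.23) passed, and both were dim. Averaging the tested probes of a gene left 1 relative lower and 2 higher, and array weights also gave 2 higher. With a minimum log2 change of 0.5, 0 were lower and 0 higher.

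Adaptors and regulators went both ways, with 4 of 17 tested higher and 5 lower (median −0.01). This is near the 23.2% higher and 23.9% lower over all genes. The membrane adaptors that switch on ITCH, NEDD4 and NEDD4L rose. Ndfip1 went from a mean log2 intensity of 11.98 ± 0.08 to 12.99 ± 0.19 (SD, n = 3), a change of 1.02 ± 0.11 (adjusted p = 2.16e-05, limma). Ndfip2 rose by 0.94 ± 0.15 (adjusted p = 0.000428). Sgk1, a kinase that inhibits NEDD4L, rose by 0.88 ± 0.15, and Otub1, a deubiquitinase, by 0.55 ± 0.13. Sla, an adaptor that brings CBL to antigen receptors, changed by −3.18 ± 0.14 (adjusted p = 5.42e-08), and Txnip, an arrestin that binds ITCH, by −3.10 ± 0.09. Arrdc1, another arrestin that recruits the NEDD4 group, changed by −1.16 ± 0.17, and Sh3kbp1, the CBL partner CIN85, by −0.67 ± 0.09. Sla2, a relative of Sla, was dim and was at least 1.10-fold lower. The adaptors Grb2 (−0.01), Crk (−0.22), Crkl (−0.25) and Cd2ap (0.23) did not pass.

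Genes whose products the CBL and NEDD4 group ligases are reported to act on changed in both directions. Of 17 tested, 10 fell and 4 rose, beside 23.9% lower and 23.2% higher over all genes, with a median of −1.07 (−0.98 when Syk is set to its bound). Cd79b, a signalling chain of the BCR, changed by −2.76 ± 0.10 from a level within 1 log2 unit of the brightest probes, so the fall can be understated. Btk, a kinase downstream of the receptor, changed by −2.53 ± 0.12. Fyn, a Src family kinase, rose by 2.27 ± 0.18, and Junb, an AP-1 subunit that ITCH targets, by 1.18 ± 0.11. Jun, another ITCH target, changed by −1.07 ± 0.19.

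Reported targets of MARCHF1 did not share a direction, with 4 of 10 higher and 2 lower (median 0.11), beside 23.2% and 23.9% over all genes. Cd86, a costimulatory ligand, rose by 1.52 ± 0.14 (adjusted p = 7.38e-06, limma). The MHC class II genes H2-Aa (−0.17 ± 0.09), H2-Ab1 (0.05 ± 0.10) and H2-Eb1 (0.17 ± 0.11) did not pass. H2-Ab1 and H2-Eb1 read within 1 log2 unit of the array maximum of 15.52, so a change in them can be hidden. Tfrc, the transferrin receptor, rose by 2.64 ± 0.17 and Cd44, a hyaluronan receptor, by 2.04 ± 0.17. Insr, the insulin receptor, changed by −2.61 ± 0.21 and Fas, a death receptor, by −1.20 ± 0.16. These are transcript levels, and surface protein was not measured here.

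Of 6 partners and targets of PELI1 tested, 4 fell and 1 rose (median −0.62), beside 23.9% and 23.2% over all genes. Rel, which encodes the NF-kB protein c-Rel, rose by 1.67 ± 0.13 (adjusted p = 2.33e-06, limma). Bcl6, a transcriptional repressor that germinal centre B cells need, changed by −2.39 ± 0.24, and Irak2, a kinase of the Toll-like receptor pathway, by −0.83 ± 0.11. The other members that fell were Map3k14 (−0.82 ± 0.16) and Irak1 (−0.42 ± 0.11).

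Of other ligases and deubiquitinases of lymphocyte signalling, 9 of 19 were lower and 1 was higher (median −0.29), beside 23.9% and 23.2% over all genes. Dtx3l, a Deltex ligase, changed by −2.61 ± 0.13, and Dtx1, a regulator of Notch, by −1.30 ± 0.16. Tnfaip3, the ubiquitin editing enzyme A20 that limits NF-kB, was the member that rose (1.07 ± 0.12; adjusted p = 3.55e-05, limma). With the replicate block, or without untreated replicate 1, 2 members were higher. The same count came without both replicate 1 arrays and with the tested probes of a gene averaged.

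In the shared ubiquitin machinery, of 14 ubiquitin-conjugating and related enzymes tested, 5 rose and 2 fell (median 0.17), a share called near the 47.1% of all genes. Ube2g2 (1.00 ± 0.18) and Ube2g1 (0.68 ± 0.12) rose most, and Ube2l6 (−1.04 ± 0.14) and Ube2d2a (−0.85 ± 0.15) fell. Without untreated replicate 2, or anti-IgM replicate 2 or 3, 3 rose. With a minimum log2 change of 0.5, 1 rose and 1 fell. In endocytic sorting, which carries tagged receptors to lysosomes, 6 of 31 genes tested rose and 8 fell (median 0.16), likewise near the 47.1% of all genes. Ap2b1 (−0.90 ± 0.15) and Ap2s1 (−0.90 ± 0.11), subunits of the clathrin adaptor AP-2, fell most. Chmp4b and Tsg101, components of the ESCRT machinery, rose by 0.61 ± 0.12 and 0.61 ± 0.15.

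**Figure D4:**
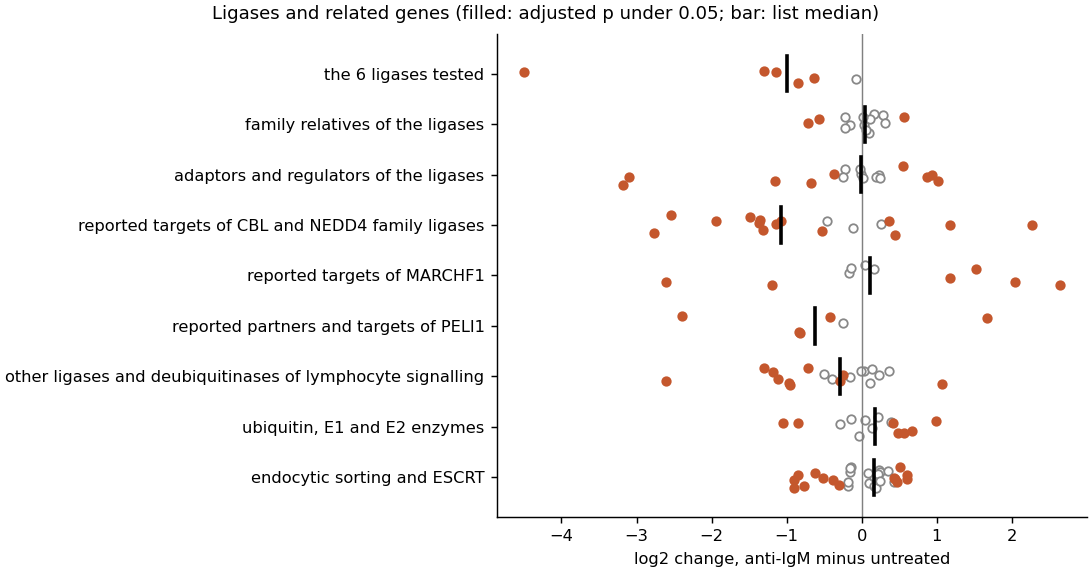
Log2 change (anti-IgM minus untreated) of each tested gene of the ligases and of the 8 related lists, filled where the adjusted p was under 0.05, with a black bar at the median of each list. The medians lie between −1.07 for targets of the CBL and NEDD4 group and 0.17 for ubiquitin, E1 and E2 enzymes, beside 0.02 for all genes tested.

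Markers of other cell types were measured in the same samples. None of 4 T cell markers tested passed in limma, and 1 had an unadjusted p under 0.05. Their summed intensity was 311 to 404 in untreated and 310 to 392 in anti-IgM samples. Of 3 natural killer cell markers tested Nkg7 rose (1.20 ± 0.21) and Klrd1 fell (−0.78 ± 0.15), and the 3 summed to 307 to 404 and then 455 to 555. Ncr1, which defines these cells, was under the array median in all 6 samples, as was Cd8a of T cells. Both granulocyte markers tested, S100a8 (−0.97 ± 0.32) and S100a9 (−0.85 ± 0.22), fell, from a sum of 586 to 1322 to one of 459 to 645. Of 2 plasma cell markers tested Sdc1 fell (−1.24 ± 0.32) and Prdm1 did not pass, with sums of 229 to 506 and 177 to 218. Of 2 red cell markers, Hba-a1 and Klf1, 0 passed in limma and 0 had an unadjusted p under 0.05. The part of these cells in the ligase results was not tested.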

How the data were processed

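RNA of 6 samples was amplified and labelled with biotin (Ambion Illumina kit), per the labels' protocols. The values used are the intensities per probe that the authors deposited in the series' value table, on a linear scale and already normalized between arrays, as the values show (array medians within 0.0453% of each other). How they were normalized is not stated in these sources. A table of signals before normalization was not used, since its 6 columns match no sample label.

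Intensities were taken as log2. Probes brighter than the array median on at least 3 of 6 arrays were tested, 23505 in all. The platform annotation gave 1 symbol to 34885 probes and several to 18, and 10378 are unnamed here. RefSeq (GRCm38.p6) matched 34807 of the first by Entrez ID. Each gene was read by its brightest probe tested. Groups were compared with limma 3.58.1 in R 4.3.3 (intensity trend, no covariate, two-sided). P-values were adjusted by Benjamini-Hochberg over all genes tested. The median SE was 0.15, and the number of arrays limits the precision.

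Replicate numbers 1 to 3 recur in both groups' titles. Deviations from the group means correlated at 0.60, 0.27 and 0.32 for the pairs, each over 0.1, the criterion set for pairing. Replicate 1 stood apart from replicates 2 and 3 in both groups, as Xist shows. A shift shared by both replicate 1 arrays can by itself make the values of the other pairs positive. These values therefore cannot show that replicates 2 and 3 are matched, and unmatched pairs were not compared. The adjusted p-values given are from the fit without the pairing, and a fit with the replicate block changed the call of none of the 6 ligases tested. No 2 arrays were identical (0 pairs).

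The ligases, the lists, the tests and the alternatives were chosen with earlier results of these data known. Named were all 7 ligases, called genes of the relatives and of the adaptors, and for each other list the largest rises and falls among called genes. Other genes were named after their values were seen. For a gene with no array of a group above the median, the change is a bound against that median. Motif letters were chosen after the changes were seen. Plots used Python 3.11.15 and matplotlib 3.10.9.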

Additional observations from a re-analysis of the deposited data

How the results depend on the processing

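The falls of Marchf1, Nedd4l, Cblb and Peli1 kept their direction and passed the test under each alternative in which they were tested, among them the replicate block, other backgrounds, normalizations and variance models, and each sample left out. Their log2 changes ranged over −5.25 to −3.87, −1.42 to −1.16, −1.70 to −0.78 and −0.91 to −0.76. With the replicate block 6397 genes were called in place of 5581, and the 5 ligases kept their calls, Itch at −0.63 (adjusted p = 0.000726, limma). With each sample left out in turn, 4962 to 5517 genes were called, Itch ranged from −0.53 to −0.76 and Cbl from −0.24 to 0.11. Itch missed the threshold without untreated replicate 3 and with a minimum log2 change of 0.5 (−0.63; adjusted p = 0.68), under which 2777 genes were called. For Cbl, which was not called, the change was 0.11 without untreated replicate 1 and 0.03 without anti-IgM replicate 3. Without both replicate 1 arrays it was −0.05. With the filter raised to all 6 arrays, Marchf1 and Cblb dropped out and 3 ligases were called. The paralogue differences kept their sign with 50 added to each intensity. Their mean over numbered pairs, the replicate block form, equals the value given by arithmetic (1.06 for Cbl minus Cblb) and is no separate check. Of 288 recounts of the lists, 20 moved by more than 1.5 times. With a minimum log2 change of 0.5, each list but that of MARCHF1 targets had fewer genes called. Dim signal limits Nedd4, and the anti-IgM levels of Marchf1 and Cblb lie near the array median, where folds are compressed.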
